A study of Mus musculus with 30 samples.

Results

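The expression values described here are those of wild type mouse embryonic fibroblasts (MEFs) that received the p38 inhibitor SB203580 before anisomycin, set against wild type MEFs that received anisomycin alone. The members are 4 arrays, 2 with SB203580 and anisomycin and 2 with anisomycin, out of the 30 arrays of the series, and they were taken by their titles and paired by replicate number. Of the 21689 named genes on the arrays, 14471 were measured on all 4. The MEFs were immortalised and growing exponentially, and anisomycin was given at 25 ng/ml for 45 min in both groups. The titles give SB203580 as 10 mM for 2 h, whereas the treatment protocol gives 10 µM for 30 min before the stress, and the labels do not settle which was used. Each array carried the RNA of the treated culture in Cy5 and, in Cy3, pooled RNA from 2 wild type cultures left untreated, so every level below is a log2 ratio over this pool. The series also holds SB203580 alone, TNFα (100 ng/ml) and NaCl (100 mM) for 45 min with and without SB203580, and later NaCl times. It further holds p38α-/- MEFs, untreated or given anisomycin, TNFα or NaCl for 2 h. Each of these groups has 2 arrays. By the study's methods the 2 arrays of a group came from separate experiments.

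The p38 kinases are stress-activated MAP kinases that pass signals from the membrane and the cytoplasm to transcription factors, chromatin kinases and proteins that control mRNA decay. Anisomycin blocks the peptidyl transferase step of translation and is a strong activator of p38 and of the JNK kinases, and it raises immediate early genes within minutes. SB203580 binds the ATP pocket of p38α and p38β and is used to find which part of a stress response needs their activity. It leaves the kinases in place, and it does not inhibit p38γ or p38δ.

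On these 4 arrays 90.6 to 95.3% of the probes were well above background in Cy5. The scanner software marked 9.20 to 30.1% of the spots as outliers, and these spots were left out unless stated. The replicate numbers of the wild type arrays coincide with their 2 scan sessions, so each pair lies within 1 session and its difference is a within-batch value. All 14 fibroblast markers were well above background on all 4 arrays, and 9 of them were measured, with differences from -0.13 to 0.48 and none past the test. The 8 macrophage markers were also above background on all 4 arrays, at a median Cy5 signal of 905 to 3010 against 20712 to 27083 for the fibroblast markers, and the 6 measured ones differed by -0.14 to 0.10. Their summed signal lay between 18197 and 41566 on the anisomycin arrays and between 16038 and 37029 with the inhibitor. Above background on all 4 arrays were also 8 of 8 epithelial, 7 of 8 skeletal muscle and 7 of 8 endothelial markers. Median Cy5 signals of these lists were 3660 to 6589, 3217 to 5544 and 946 to 1730. With most probes above background, passing this mark does not tell cell types apart.

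With SB203580 before anisomycin, expression was lower than with anisomycin alone for a small set of genes, with Btg2 and Egr1 foremost. No gene was higher by the test. This contrast compares levels and does not subtract those of SB203580 alone, which are taken up further on. Of 14471 genes measured on all 4 arrays, 4 had an adjusted p under 0.05 in the limma fit, all lower, which is 0.0276% of the genes tested. They are Btg2, an antiproliferative gene of the BTG/TOB family and a p53 target, Egr1, a zinc finger transcription factor, Chka, choline kinase alpha, and Zcchc3, a zinc finger protein that binds nucleic acid. At an unadjusted p under 0.05, 275 genes were lower (1.90%) and 213 higher (1.47%). A difference of at least 2-fold in both pairs was lower for 24 genes (0.166%) and higher for 4 (0.0276%), while 4 genes passed 2-fold downwards in pair 1 and upwards in pair 2 and 3 the other way. Over all genes the differences of the pairs had medians of 0.02 and 0.00 and an SD of 0.29 each, and across genes, which are not independent replicates, they correlated with r = 0.12.

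**Figure D1:**
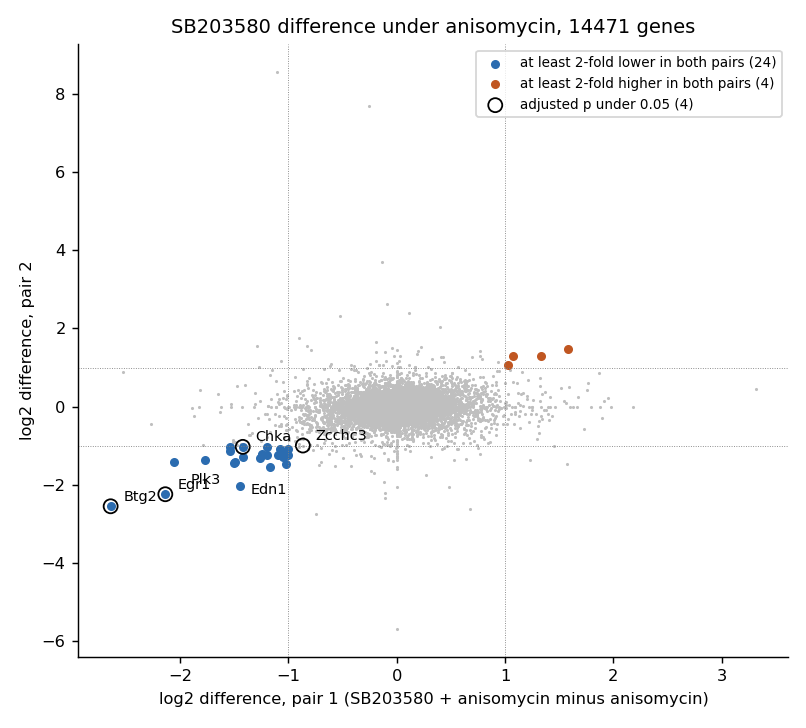
Log2 difference between SB203580 with anisomycin and anisomycin alone in pair 1 (x axis) and pair 2 (y axis), 1 point a gene for the 14471 genes measured on all 4 arrays. Dotted lines mark 2-fold, and the corner that is lower in both pairs holds 24 genes against 4 in the opposite corner, with Btg2 at -2.64 and -2.55 and Egr1 at -2.14 and -2.24.

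Btg2 had log2 ratios of 5.38 and 5.26 with anisomycin and of 2.74 and 2.71 when SB203580 was given first. The 2 inhibitor arrays lay far below the 2 anisomycin arrays and above both arrays of SB203580 alone, at 1.07 and 0.18. The difference was -2.59 ± 0.07 (SD, n = 2 pairs), which is 6.04-fold lower, with a 95% interval of -3.16 to -2.03 and an adjusted p of 0.00287. This value comes from 1 of 3 Btg2 probes, the others holding marked spots. Those other probes gave differences of -2.33 and -2.18, so all 3 moved alike.

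Egr1 stood at 4.94 and 4.48 with anisomycin and at 2.81 and 2.24 with the inhibitor. The groups did not overlap, and the difference of -2.19 ± 0.07 (4.55-fold lower) had an adjusted p of 0.0367. Chka, which makes phosphocholine for membrane lipids, went from 1.93 and 1.27 to 0.51 and 0.24, a difference of -1.22 ± 0.28 (2.34-fold lower, adjusted p = 0.0284). The value averages 3 probes, with differences of -1.35, -1.37 and -0.94, and another with marked spots gave -0.81. Zcchc3 went from 1.19 and 1.37 to 0.32 and 0.38, a difference of -0.93 ± 0.09 (1.90-fold lower, adjusted p = 0.0284). Under alternative processing the call of Egr1 held in 10 of 15 settings, that of Zcchc3 in 10 of 15 and that of Chka in 8 of 14, against 14 of 15 for Btg2. With no replicate block the adjusted p in limma was 0.073 for Egr1 and 0.652 for Chka. Without replicate 1 of anisomycin it was 0.185 for both, and without replicate 2 of SB203580 with anisomycin it was 0.232 for Egr1, 0.206 for Chka and 0.202 for Zcchc3. Without replicate 1 of SB203580 with anisomycin it was 0.139 for Chka and for Zcchc3, and without replicate 2 of anisomycin it was 0.175 for Zcchc3.

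Promoter sequences are shown for Btg2, Chka and Zcchc3, the genes past the test with a promoter in the RefSeq table used, and for Epha2, Atf3, Nr4a1 and Zfp36 as examples of lower genes that hold a motif, because p38 and its downstream kinases are known to phosphorylate CREB and ATF1, which bind the cAMP response element, and Elk1, a cofactor of the serum response factor. The windows are the 250 bases before the gene start as RefSeq gives it, on GRCm38.p6, read 5′ to 3′ in the direction of the gene. Btg2 lies at chr1:134079156-134079405, minus strand, Chka at chr19:3851523-3851772, plus strand, Zcchc3 at chr2:152415045-152415294, minus strand, Epha2 at chr4:141300971-141301220, plus strand, Atf3 at chr1:191183334-191183583, minus strand, Nr4a1 at chr15:101266596-101266845, plus strand and Zfp36 at chr7:28379229-28379478, minus strand. Capitals mark every match on either strand to the cAMP response element TGACGTCA, its core TGACG, the AP-1 site TGANTCA and the CArG box of the serum response factor, where the core also lies inside the full element.
Btg2: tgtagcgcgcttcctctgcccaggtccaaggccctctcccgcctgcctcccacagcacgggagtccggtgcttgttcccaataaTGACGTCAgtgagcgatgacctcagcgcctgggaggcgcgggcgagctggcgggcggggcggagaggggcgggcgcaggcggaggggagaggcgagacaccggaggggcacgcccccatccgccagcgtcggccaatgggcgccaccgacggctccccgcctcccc
Chka: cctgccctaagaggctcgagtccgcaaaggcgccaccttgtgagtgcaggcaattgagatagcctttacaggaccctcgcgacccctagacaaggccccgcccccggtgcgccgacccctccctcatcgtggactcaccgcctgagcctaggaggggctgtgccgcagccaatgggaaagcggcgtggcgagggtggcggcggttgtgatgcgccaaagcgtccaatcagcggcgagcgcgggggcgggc
Zcchc3: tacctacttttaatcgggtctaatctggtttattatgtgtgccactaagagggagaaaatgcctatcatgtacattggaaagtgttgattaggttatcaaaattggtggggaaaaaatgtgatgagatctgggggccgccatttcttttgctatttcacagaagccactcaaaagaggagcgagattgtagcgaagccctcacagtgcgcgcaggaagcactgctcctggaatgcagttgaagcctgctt
Epha2: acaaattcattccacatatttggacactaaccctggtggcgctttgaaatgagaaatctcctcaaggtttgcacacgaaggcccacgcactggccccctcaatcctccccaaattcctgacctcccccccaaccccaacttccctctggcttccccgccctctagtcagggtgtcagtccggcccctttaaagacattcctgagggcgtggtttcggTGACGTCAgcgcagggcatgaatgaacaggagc
Atf3: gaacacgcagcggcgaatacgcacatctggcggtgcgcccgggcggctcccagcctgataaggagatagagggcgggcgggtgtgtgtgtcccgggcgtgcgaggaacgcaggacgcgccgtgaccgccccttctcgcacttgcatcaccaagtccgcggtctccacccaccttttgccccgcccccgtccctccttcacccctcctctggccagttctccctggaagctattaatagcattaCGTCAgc
Nr4a1: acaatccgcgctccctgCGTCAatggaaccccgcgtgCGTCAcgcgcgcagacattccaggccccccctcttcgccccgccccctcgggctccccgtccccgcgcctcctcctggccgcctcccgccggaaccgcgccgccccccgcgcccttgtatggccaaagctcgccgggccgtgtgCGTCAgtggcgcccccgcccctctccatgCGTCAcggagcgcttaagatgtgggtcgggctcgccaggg
Zfp36: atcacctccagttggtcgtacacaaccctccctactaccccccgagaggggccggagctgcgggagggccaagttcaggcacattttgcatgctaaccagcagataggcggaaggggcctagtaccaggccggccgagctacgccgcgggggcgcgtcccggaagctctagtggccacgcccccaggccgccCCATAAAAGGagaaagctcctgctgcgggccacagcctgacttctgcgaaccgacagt
Btg2 and Epha2 hold the full element, 166 and 33 bases before the start. Chka and Zcchc3 hold none of the motifs, so the core is in 1 of the 3 genes past the test (33.3%), and Jun, Ptgs2 and Edn1 hold none either. Atf3 and Nr4a1 hold the core only, Nr4a1 at 4 places, and Zfp36 holds a CArG box. Of the 24 genes that were 2-fold lower in both pairs, 17 had a promoter in the table. The core was found in 8 of these 17 (47.1%), against 21.7% of the 9177 measured genes with a promoter and 17.9% of all 27025 promoters. The full element was in 2 (11.8%, against 2.15% and 1.62%), the AP-1 site in 1 (5.88%, against 6.36% and 6.87%) and the CArG box in 0 (against 1.16% and 1.4%). Egr1, which is among the 24, had no promoter in the table, so its window was not searched for any motif. Of the 20 genes that passed with marked spots kept, described further on, 16 had a promoter and 11 of these held the core (68.8%). The full element was in 1 (6.25%), the AP-1 site in 0 and the CArG box in 1 (6.25%). Shares over the genes measured in that setting were not computed, and those over all promoters are given above. These counts describe letters in the window and do not show binding.

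Most of the 2-fold set missed the threshold, since 21 of the 24 genes that were 2-fold lower in both pairs had no adjusted p under 0.05, Btg2, Egr1 and Chka being the exceptions. Jun lies just inside the 2-fold line, at -1.004 and -1.069, and Myc, the growth regulator, just outside it, at -1.47 and -0.97. Bdnf, a neurotrophin, is in the set at -1.05 and -1.27. Over all genes both inhibitor arrays lay under both anisomycin arrays for 1355 (9.36%) and over them for 1975 (13.6%). In 5 of the 24 genes, none of them named here, neither inhibitor array was well above background in Cy5, and their differences have no firm size.

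Several of the next genes encode secreted or membrane proteins. Edn1, the vasoactive peptide endothelin-1, had 1.30 and 1.25 with anisomycin and -0.15 and -0.78 with SB203580, below the pool. Its difference was -1.74 ± 0.42 (3.35-fold lower, adjusted p = 0.232). Adamts1, a secreted metalloprotease, went from 1.16 and 0.62 to -0.34 and -0.79, a difference of -1.45 ± 0.06. Epha2, an ephrin receptor kinase, went from 2.64 and 2.23 to 1.38 and 0.92, a difference of -1.29 ± 0.03. Both groups were apart on all 4 arrays for each of these genes, but the test did not pass. Spry4, an inhibitor of receptor tyrosine kinase signalling, went from 2.21 and 1.76 to 0.70 and 0.91.

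Others are kinases and G proteins. Plk3, a polo-like kinase of the stress response, went from 2.91 and 2.16 to 1.14 and 0.79, a difference of -1.57 ± 0.28 (2.97-fold lower, adjusted p = 0.422). Rasd1, a small G protein, went from 1.87 and 0.92 to 0.37 and -0.52. The 2 arrays of SB203580 alone disagreed for Rasd1, at 1.01 and -1.61, and only 1 of the 2 inhibitor arrays was well above background in Cy5. Sik1 (Snf1lk in the array files), a salt-inducible kinase, differed by -1.07 ± 0.27.

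Among the transcription factors of the AP-1 and ATF list, 5 of 13 members were measured without marked spots and none passed the test. Maff, a small Maf protein, went from 2.26 and 1.97 to 0.85 and 0.70, a difference of -1.35 ± 0.10 (2.54-fold lower, adjusted p = 0.281). Jun, the AP-1 subunit, stood at 6.21 and 5.85 with anisomycin and 5.21 and 4.78 with SB203580, a difference of -1.04 ± 0.05 (2.05-fold lower, adjusted p = 0.888). Even so it had the highest ratio with the inhibitor among the genes named here. The list had a median difference of -0.52, against 0.01 over all genes tested.

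The other immediate early genes formed the list with the most lower members. Of its 28 genes 17 were measured, 15 were lower in both pairs (23.0% of all genes were) and 2 were higher in both (28.9%), and Egr1 passed the test. The median difference was -0.78, from a median level of 1.64 with anisomycin to 0.54 with the inhibitor. Klf4, a Krüppel-like factor, went from 2.51 and 1.20 to 0.96 and 0.07, and its difference was -1.34 ± 0.29 (adjusted p = 0.207). Egr3, a relative of Egr1, went from 2.43 and 1.22 to 0.99 and 0.28. Klf9 (Bteb1 in the array files) differed by -1.11 ± 0.13 and Csrnp1 (Axud1) by -0.93 ± 0.04.

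**Figure D2:**
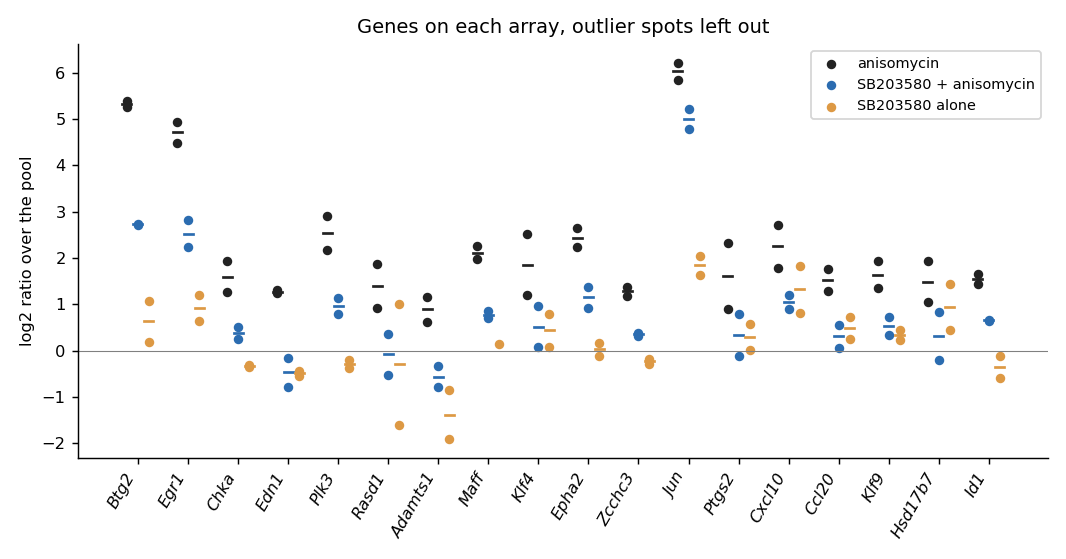
Log2 ratio over the pool (y axis) of the leading lower genes on each array of anisomycin, SB203580 with anisomycin and SB203580 alone, with bars at the mean of the 2 arrays and marked spots left out. The anisomycin arrays lie above the inhibitor arrays for each gene shown, and Jun stays highest with the inhibitor, at 5.21 and 4.78.

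Chemokines and prostaglandin synthesis were measured more fully. Of 25 chemokines and cytokines 18 were measured, 13 were lower in both pairs (23.0% of all genes were), 6 were lower at an unadjusted p under 0.05 (1.90% of all genes were), and none passed the adjusted test. Cxcl10, a chemokine for T cells, went from 2.71 and 1.79 to 1.20 and 0.90, a difference of -1.20 ± 0.44 (adjusted p = 0.207). Ccl20, which attracts CCR6-bearing cells, went from 1.76 and 1.29 to 0.56 and 0.06, near the 0.72 and 0.26 of SB203580 alone. Ccl22 differed by -1.36 ± 0.26, but was well above background in Cy5 on 1 of 2 arrays in each group. Il1a, the interleukin, differed by -0.42 ± 0.09. Ptgs2, the inducible cyclooxygenase, went from 2.32 and 0.91 to 0.78 and -0.12, a difference of -1.28 ± 0.36 (adjusted p = 0.685), and both of its probes were lower in each pair. The other 9 measured members of its list, EGF-type ligands and prostaglandin enzymes and receptors, had no unadjusted p under 0.05.

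Feedback regulators differed unevenly. Dusp4, a MAP kinase phosphatase, went from 0.89 and 0.72 to -0.11 and -0.09 and differed by -0.90 ± 0.13, while the median of the 5 phosphatases measured was -0.07. Zfp36l1, which recruits the decay machinery to AU-rich mRNAs, differed by -0.93 ± 0.23 (adjusted p = 0.207), from 1.40 and 1.64 to 0.63 and 0.54. Nfkbiz, an atypical IκB protein, differed by -0.92 ± 0.10, while the 9 measured NF-κB genes had a median of -0.05. Btg1 went from 1.32 and 1.05 to 0.31 and 0.47, below both arrays of SB203580 alone at 1.12 and 0.73. Id1, an inhibitor of helix-loop-helix factors, differed by -0.89 ± 0.13, and Id4 by -0.50 ± 0.61, from -0.93 in pair 1 and -0.07 in pair 2. Nfil3, a bZIP repressor, differed by -0.72 ± 0.22 and Mafk, a small Maf protein, by -0.52 ± 0.16. None of these passed the adjusted test.

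Most other lists had medians close to that of all genes. The 10 measured genes of the p38 cascade itself differed by -0.07 to 0.26, and Map2k6, the kinase upstream of p38, by 0.21 ± 0.12. Mapk14, which encodes p38α, was held back by 1 marked spot and stood at 0.32 and 0.05 with anisomycin and 0.46 and 0.26 with SB203580 when that spot was kept. The 95% interval of its difference ran from -0.22 to 0.57. Heat shock proteins had a median of 0.06, aryl hydrocarbon receptor targets of 0.03 and Nrf2 targets of -0.05, with no unadjusted p under 0.05 in any. The cell cycle list (13 measured, median -0.06) and the amino acid and glucose transporters (9 measured, median -0.04) had none either. Within the near-median lists Hspa1a, Tiparp, Osgin1, Cdk1 and Slc38a2 each had the largest moderated t of its list, with differences of -0.44, -0.27, -0.23, -0.24 and -0.46. In the integrated stress response list the median was -0.04, and Chac1 (1810008K03Rik in the array files), a target of the ATF4 arm, differed by -0.85 ± 0.02. The JNK and ERK cascades had a median of 0.03, with Spry4 the only member at an unadjusted p under 0.05. In the list of genes of the serum response factor, with a median of -0.08, Thbs1 differed by -0.49 ± 0.18. The CREB and cAMP response list had a median of 0.03, the Id and TGF-β feedback list of -0.05 and the mRNA decay factors of -0.03. Another pair of lists lay lower. The Gadd45 and p53 targets, which include Btg2, had a median of -0.23, with 6 of 7 measured genes lower in both pairs, and the Btg and Tob genes, 3 of 5 measured, had the lowest median of the 21 lists, -0.80.

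**Figure D3:**
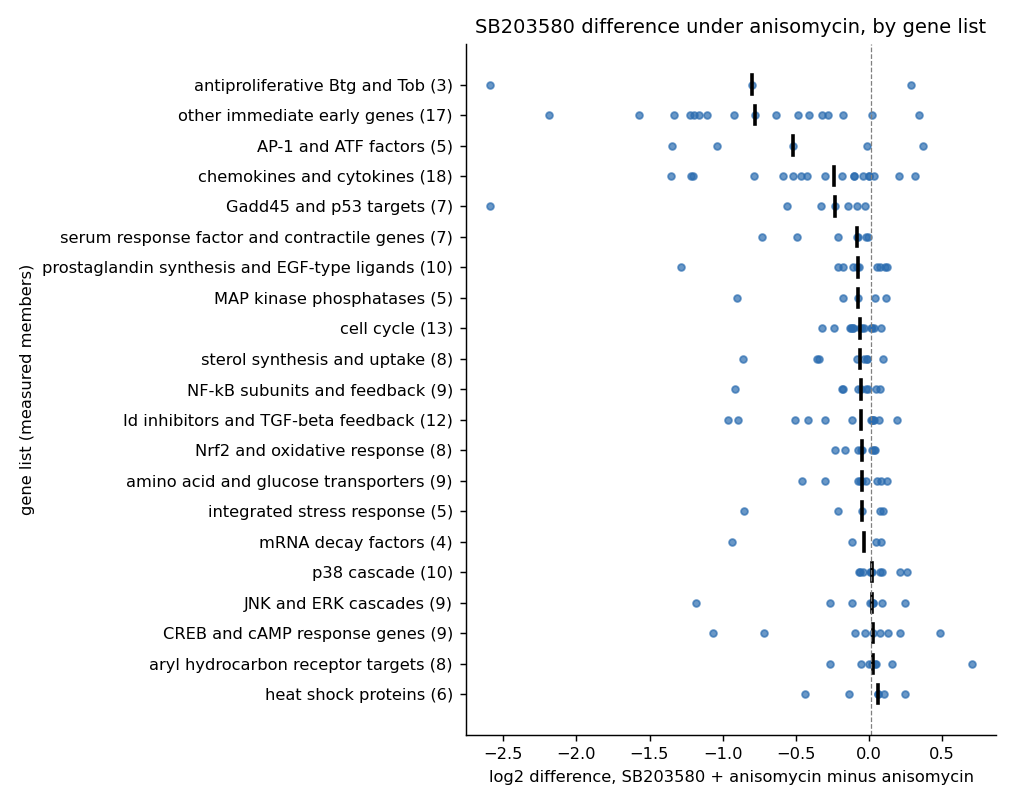
Log2 difference between SB203580 with anisomycin and anisomycin alone (x axis) for the measured members of 21 gene lists (y axis), 1 point a gene, with a black bar at the list's median and a dashed line at the median of all genes, 0.01. The Btg and Tob, immediate early, and AP-1 and ATF lists have the lowest medians, at -0.80, -0.78 and -0.52.

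The result depends on how spots marked as outliers are treated. Without them 17 of the 28 other immediate early genes and 5 of the 13 AP-1 and ATF genes were measured. Over all genes 14471 of 21689 were. Whether marking goes with brightness or strong change was not tested. With marked spots kept, 21689 genes were measured and 20 had an adjusted p under 0.05, all lower (0.0922%), with differences from -2.63 to -0.65. The 4 genes above are among them, and 11 of the 20 had not been measured at all without the marked spots. These genes were chosen after their values were seen. In the authors' own value table of the same arrays all 20 also passed, with adjusted p from 2.0e-05 to 0.0247, which is no independent evidence.

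Atf3, a repressor of the ATF family, had log2 ratios of 3.75 and 3.37 with anisomycin and 1.44 and 0.88 with SB203580, with marked spots on 3 of the 4 arrays. Its difference was -2.39 ± 0.13 (5.25-fold lower, adjusted p = 8.3e-05). Zfp36, the AU-rich mRNA decay factor tristetraprolin, went from 4.08 and 3.72 to 1.46 and 1.27, a difference of -2.54 ± 0.12 (5.82-fold lower, adjusted p = 0.00102), and its 2 probes gave -2.62 and -2.46. Ccn2 (Ctgf in the array files) and Ccn1 (Cyr61), secreted matricellular proteins, went from 3.08 and 2.89 to 0.84 and -0.14 and from 3.47 and 3.39 to 1.41 and 0.33. Their differences of -2.63 ± 0.56 and -2.56 ± 0.71 varied more between pairs than those of Atf3 and Zfp36.

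Junb, an AP-1 subunit, went from 1.40 and 1.53 to 0.41 and 0.13, a difference of -1.20 ± 0.29 (adjusted p = 0.0014). Its 2 probes did not move alike, with differences of -2.06 and -0.33. Nr4a1, an orphan nuclear receptor, differed by -1.25 ± 0.03 and Cebpb, a C/EBP factor, by -0.88 ± 0.06. Ier2 differed by -1.45 ± 0.80, since 1 of its probes hardly moved in pair 1. Ifrd1, an interferon-related regulator, differed by -1.05 ± 0.22. Its probes gave -0.51 and -1.59, the latter with marked spots on 3 of the 4 arrays. Fosr differed by -1.67 ± 0.39.

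Adamts1 and Maff, which had missed the threshold without marked spots, passed it once these were kept, at -1.73 ± 0.07 and -1.35 ± 0.10 (adjusted p = 0.0237 and 0.0291). The Maff probe had no marked spot on the 4 arrays, and its difference was the same in both settings. The smallest differences among the 20 genes were those of Clic4, a chloride intracellular channel protein, at -0.65 ± 0.03, and Pard6b, a polarity protein, at -0.68 ± 0.16. The probes of Clic4 gave differences of -0.89 and -0.41.

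Of the 17 genes of sterol synthesis and uptake, 1 passed the test with marked spots kept. It is Insig1, which holds SREBP in the endoplasmic reticulum and went from 0.73 and 0.09 to -0.60 and -1.02 (adjusted p = 0.0281). Hsd17b7, an enzyme of cholesterol synthesis that is not on the list, differed by -0.75 ± 0.17 over its 2 probes (adjusted p = 0.0185). These probes did not move alike, with differences of -1.17 and -0.34. On the list 6 genes had an unadjusted p under 0.05 in limma, all lower. Over all 21689 genes 389 were lower and 296 higher at that threshold. In both pairs 10 list members were lower and 2 higher (18.8% of all genes were lower and 26.3% higher in both). Hmgcs1 and Idi1, enzymes of the mevalonate pathway, differed by -0.93 and -0.81. Without marked spots 8 of the 17 were measured, Cyp51 at -0.86 ± 0.05 and the regulator Srebf2 at -0.35 ± 0.17 among them, with a list median of -0.06. With marked spots kept the median level of the list was 0.20 with anisomycin and -0.26 with SB203580, while that of the other immediate early genes was 1.24 and 0.47.

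Other immediate early and feedback genes did not pass the test with marked spots kept. Fos, the partner of Jun, had 4.13 and 4.41 with anisomycin and 3.77 and 3.49 with SB203580, a difference of -0.64 ± 0.39 with an adjusted p of 1. Jund differed by -0.40 ± 0.10 and Tnfaip3, the NF-κB feedback inhibitor A20, by -0.24 ± 0.20. Dusp1, a phosphatase of p38 and JNK, went from 5.06 and 4.66 to 3.83 and 3.38, a difference of -1.25 ± 0.03 (adjusted p = 0.106) that is as large as that of Nr4a1. With marked spots kept, the AP-1 and ATF list had 13 measured members, 11 lower in both pairs and 3 past the test, with a median of -0.69. The other immediate early genes had 28, of which 25 were lower in both pairs and 5 past the test, with a median of -0.72, against 0.02 over all genes.

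**Figure D4:**
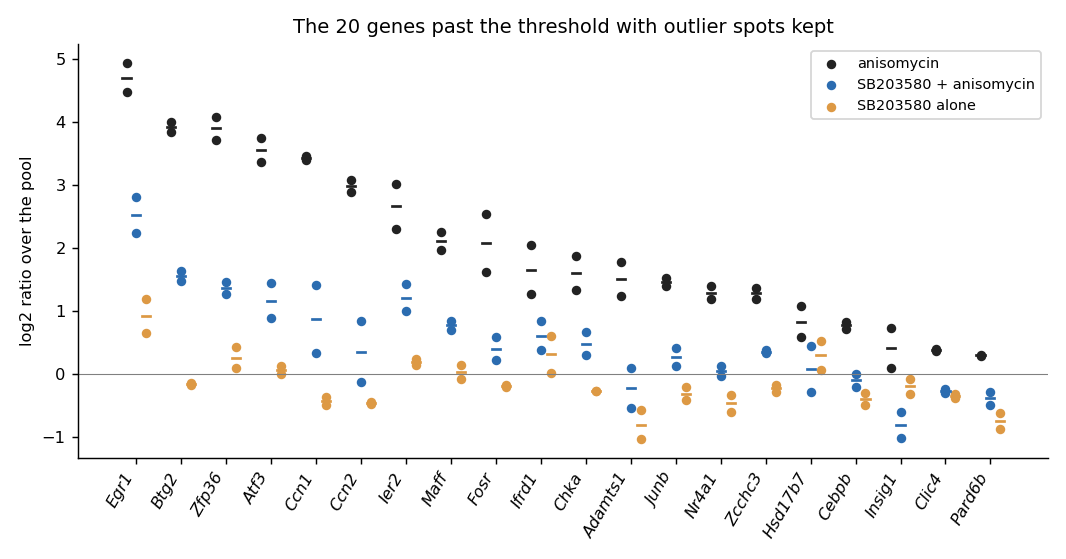
Log2 ratio over the pool (y axis) on each array of anisomycin, SB203580 with anisomycin and SB203580 alone for the 20 genes with an adjusted p under 0.05 when marked spots are kept, ordered by their mean with anisomycin, with bars at the mean of the 2 arrays. The anisomycin arrays lie above the inhibitor arrays in all 20, from Egr1 at 4.94 and 4.48 down to Pard6b at 0.28 and 0.31.

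The arrays of SB203580 alone were also set against those of SB203580 with anisomycin, and this contrast was added after the data were seen. The titles give 2 h of SB203580 for both groups, but the protocol's 30 min before the stress applies only to the combined group. The labels thus do not settle whether exposure to the inhibitor was matched. SB203580 with anisomycin was higher than SB203580 alone for 2 of 14128 genes (0.0142%) and lower for 0 at an adjusted p under 0.05 in limma, while at an unadjusted p under 0.05 607 were higher (4.3%) and 712 lower (5.04%). The 2 genes are Jun, at 3.15 (95% interval 2.48 to 3.82, adjusted p = 0.00218), and Herc1, a large HECT domain protein, at 1.04 (adjusted p = 0.0124). Btg2 was 1.84 above SB203580 alone (adjusted p = 0.144), a value over the probes measured on the arrays of this contrast, which are not the same probes as for the levels given above. When marked spots were kept, 22 genes were higher, with Dusp1 at 2.75, Jun at 3.15, Dusp8, a phosphatase of JNK, at 1.99, Btg2 at 1.71 and Atf3 at 1.11 (adjusted p = 0.0454). Ptgs2, Klf4, Edn1 and Ccl20 differed from SB203580 alone by 0.03, 0.08, 0.02 and -0.18 with marked spots left out. With 2 arrays a group, these small differences do not show that no anisomycin effect was left. Leaving out replicate 2 of SB203580 alone moved the counts to 79 higher and 40 lower.

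The difference of inductions, SB203580 with anisomycin minus SB203580 minus anisomycin, was lower for 337 genes (2.54%) and higher for 185 (1.39%) of 13264, and at an unadjusted p under 0.05 for 2105 (15.9%) and 1314 (9.91%). Each term is a ratio over the pool, and a ratio that is off 0 on every array does not cancel in it. Of the 337 lower genes 287 (85.2%) were above the pool on all 6 arrays, against 23.5% of all genes tested, and of the 185 higher genes 148 (80.0%) were below it, against 15.9%. Doc2g had the smallest p, with an interaction of 2.27 and a difference between SB203580 with anisomycin and anisomycin alone of 0.00, and its measured probe lay between -2.64 and -1.59 on all 22 wild type arrays. The part of dye or pool in these calls was not tested, and the contrast fell to 35 lower and 28 higher genes without the replicate block. Btg2 (-3.22, adjusted p = 0.0012), Egr1 (-3.11, adjusted p = 0.00435) and Jun (-2.88, adjusted p = 0.00531) passed it in limma.

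The SB203580 difference under anisomycin was set against that under the other stresses given for 45 min. No gene differed from TNFα among 12830 tested or from NaCl among 11245 at an adjusted p under 0.05 in limma. At an unadjusted p under 0.05, 128 genes were lower (0.998%) and 160 higher (1.25%) under anisomycin than under TNFα, and 180 lower (1.60%) and 182 higher (1.62%) than under NaCl. Btg2 had pair differences of -2.64 and -2.55 under anisomycin, -0.47 and -0.75 under TNFα, and -0.66 and -0.11 under NaCl, with adjusted p of 0.695 and 0.632 for the contrasts. With marked spots kept, these contrasts were -1.89 (adjusted p = 0.0142) and -2.01 (adjusted p = 0.00574). Atf3 then had -0.09 and 0.05 under NaCl and differed from anisomycin by -2.38 (adjusted p = 0.00574), while its contrast with TNFα, -1.48, had an adjusted p of 0.383. All 3 Btg2 probes and the Atf3 probe had their highest ratio of the 22 wild type arrays with anisomycin alone. These contrasts do not adjust for how far each stress raised the gene, and the part of unequal induction was not tested.

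Of the 24 genes that were 2-fold lower under anisomycin, 22 were measured on the TNFα arrays and 14 were lower in both TNFα pairs (63.6%, against 22.3% of all genes). For NaCl 15 of 21 were lower in both pairs (71.4%, against 21.6%). The TNFα and NaCl arrays were not used to choose these genes, but they share the pool and the scan sessions. Median differences of the set were -0.51 under TNFα and -0.44 under NaCl. Ccl20 differed by -0.97 and -1.86 under TNFα, next to -1.20 and -1.23 under anisomycin. Edn1 differed by -1.28 and -1.52 under NaCl. Ccl22 was not lower under TNFα, at 0.02 and 0.46, nor was Jun, at 0.72 and 0.18.

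**Figure D5:**
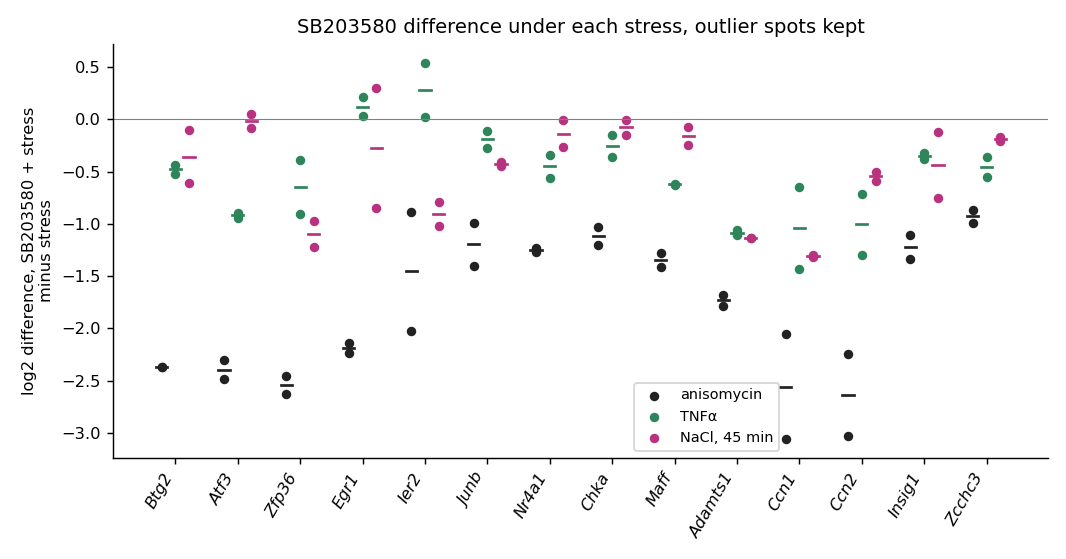
Log2 difference between SB203580 with a stress and the stress alone (y axis) for 14 of the 20 genes past the threshold, under anisomycin, TNFα and NaCl for 45 min, with marked spots kept, 1 point a pair and a bar at their mean. The points of Btg2 under anisomycin, near -2.37, lie apart from those under TNFα and NaCl, at -0.61 to -0.10, while those of Adamts1 lie closer together across the 3 stresses, from -1.78 to -1.06.

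The p38α-/- MEFs given anisomycin at the same dose and time offer a second view of lost p38α, although they are another cell line and are set beside the same 2 anisomycin arrays. Their levels are over the pool of untreated wild type cells. The untreated p38α-/- arrays were not subtracted, so these levels do not measure induction by anisomycin in the p38α-/- cells. The p38α-/- arrays were scanned in sessions 2 and 3 and the wild type ones in sessions 1 and 2, so that replicates of the same number lie in different sessions. Btg2 stood at 2.81 and 3.18 in these cells, next to 2.74 and 2.71 with SB203580. Egr1 had 3.40 and 3.02, next to 2.81 and 2.24. Klf4, at 1.90 and 1.09, and Cxcl10, at 1.85 and 1.79, stood above their inhibitor values. The 2 p38α-/- arrays differed widely for Edn1 (1.82 and 0.09), Adamts1 (1.76 and -0.59) and Rasd1 (-1.40 and 0.98).

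To read the effect on genes raised by anisomycin without choosing and reading on the same array, genes at 2.5-fold or more on 1 anisomycin array were read in the other pair. The 33 genes chosen on array 2 had a median of 1.94 on anisomycin array 1 and of 1.14 with SB203580, a median difference of -0.80, and 28 of 33 were lower (84.8%, against 44.2% of all genes). The 287 genes chosen on array 1 had a median of only 0.26 on array 2, with 63 of them at 2-fold, and a median difference of -0.069, with 160 lower (55.7%, against 48.6%). Over both readings the median was -0.12. The 2 anisomycin arrays thus differed in how many genes they placed at 2.5-fold, 287 against 33. Genes at 2.5-fold or more below the pool, 55 and 28, had median differences of -0.22 and 0.11, opposite in sign.

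Genes higher with SB203580 were few. The 4 that were 2-fold higher in both pairs are LOC433900, Jam3, Npb and Olfr138, and none passed the test. LOC433900 was well above background on all 4 arrays, at 0.25 and 0.02 with anisomycin and 1.27 and 1.09 with SB203580 (1.05 ± 0.03, adjusted p = 0.422). Jam3, a junctional adhesion molecule, and Olfr138, an olfactory receptor, were well above background on 1 array of each group, and Npb, a neuropeptide, on none.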

How the data were processed

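Total RNA was hybridised to 30 2-colour Agilent 44K arrays, the MEFs of each group in Cy5 against pooled RNA of untreated wild type MEFs in Cy3. The authors extracted intensities with Agilent Feature Extraction (8.1.1.1 in the file headers, 9.1 in the submitters' processing notes), and the deposited log10 ratios come from dye-normalized processed intensities. The authors also deposited a value table judged from its values to be log2 ratios. The number of arrays limits the precision.

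Log10 ratios were converted to log2, control spots and spots marked as outliers were left out, spots of a probe were averaged, and a gene was the mean of its probes measured on every array compared. Of 33453 named probes 21689 genes were formed, and 15880 of 16828 NM accessions gave a current symbol. limma 3.58.1 (R 4.3.3) fitted 11 group means and the replicate number as a block to the 22 wild type arrays, with empirical Bayes moderation and Benjamini-Hochberg adjustment over the genes measured, and a call was an adjusted p under 0.05. ± is the SD of the 2 pair differences. The replicate numbers were taken to pair the arrays, since in all 55 pairs of wild type groups the differences between replicates correlated across genes, at r from 0.21 to 0.69. They also coincide with the 2 scan sessions. Python 3.11.15 with pandas 2.3.3 made the remaining values, and the fit was tested on simulated data.

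Members and gene lists were chosen with earlier results of these data known. Genes were named as Mapk14, Btg2, Jun, Tnfaip3 and Ptgs2, then up to 10 a direction by the mean of the pair differences among genes 2-fold in both pairs, bright in the higher group and with an unadjusted p under 0.05, then list members by the size of moderated t. Some genes that this rule names are not reported here. Genes with marked spots kept, and Doc2g, Herc1, Dusp8, Jam3, Npb, Olfr138, Bdnf and Myc, were named after their values were seen, as were those given for the p38 cascade, sterol genes and immediate early genes outside this rule. Alternatives were another background correction, the value table, centring, Cy5 alone, the brightest probe, a background filter, keeping marked spots, no replicate block, all 30 arrays, the compared arrays alone, a 2-fold threshold for genes read in the other pair, and leaving out each array. Chosen after seeing the data were averaging whichever probes an array measured, the contrast with SB203580 alone, and leaving out further arrays.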

Additional observations from a re-analysis of the deposited data

Results flagged for a closer look

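With marked spots kept, 3 differences between stresses passed the test of the difference itself. The SB203580 difference of Btg2 was lower under anisomycin than under TNFα (-1.89, adjusted p = 0.0142 in limma) and lower than under NaCl for 45 min (-2.01, adjusted p = 0.00574), with both pairs lower in each case. That of Atf3 was -2.38 relative to NaCl (adjusted p = 0.00574). With marked spots left out Btg2 had adjusted p of 0.695 and 0.632 in limma, and Atf3 was not measured. Btg2 and Atf3 were highest with anisomycin alone among the 22 wild type arrays. The part of unequal induction by the stresses in these differences was not tested.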

How the results depend on the processing

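The 42 genes from the naming rule that were followed under the alternatives kept their direction in all 614 values, of which 17 lost the call and 18 gained it. Most were chosen for their differences on these same arrays, so an unchanged direction was close to fixed in advance. Sizes moved more, from -1.80 to -0.07 for Ccl22, -1.63 to -0.58 for Rasd1 and -3.26 to -2.37 for Btg2. Genes reported only with marked spots kept are not among the 42. Genes lower with SB203580 numbered 4, and 11 with normexp and loess, 37 in the authors' value table, 7 with spots well above background in both channels, 20 with marked spots kept, 1 with Cy5 alone, 2 with no replicate block and 0 with the 4 compared arrays only, a fit with 1 residual degree of freedom before moderation. Leaving out an array of the 4 gave 1 to 8, where the lone array of a group is assumed to vary like the others, and it gave 1 to 6 genes higher with SB203580, against 0 under every other alternative.

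The difference of inductions was the least stable. Lower and higher genes numbered 337 and 185, 1222 and 340 with normexp and loess, 2103 and 2334 in the value table, 674 and 291 with spots above background, 983 and 2792 with marked spots kept, 35 and 28 without the replicate block, and 0 and 0 with the compared arrays only. Without 1 array they ran from 14 to 1559 and from 10 to 844, the highest without replicate 2 of SB203580 alone. Cy5 alone is a level and gave no value for it.

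Against TNFα the counts were 0 and 0, with 1 lower when marked spots were kept, 1 higher with normexp and loess, and without 1 array 0 to 4 lower and 0 to 5 higher. Against NaCl the counts were 0 and 0, with 2 lower in the value table, 2 lower with marked spots kept, and without 1 array 0 to 1 lower and 0 to 4 higher. Over SB203580 alone, 0 genes lower and 2 higher became 1 lower with normexp and loess, 4 and 30 in the value table, 22 higher with marked spots kept, 1 higher with Cy5 alone, 1 higher when each array's own probes were averaged, 0 higher with the compared arrays only, and 0 to 40 lower and 3 to 79 higher without 1 array. The median over genes raised on the other anisomycin array, -0.12, was -0.64 with normexp and loess and -0.80 to -0.069 without a replicate. The cause of these shifts was not tested. Dim spots limit 5 of the 24 genes that were 2-fold lower, as given above.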
